A study of Rattus norvegicus with 9 samples.

Results

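The collagen genes are the 44 genes of the deposited rat table whose symbol is Col followed by a type number, the letter a, and a chain number, out of 35362 genes in all. The choice used the symbol alone and no measured value, though it was made with earlier results of these data known. SASCs, PASCs, and EASCs are mesenchymal stem cells grown in culture from subcutaneous fat of the groin, from perirenal fat, and from epididymal fat, all of them of Sprague Dawley rats (male, 6 weeks of age). RNA of cells at passage 3 was sequenced in 9 samples, 3 for each fat depot. The labels name no treatment and do not say if the 3 samples of a depot are different rats or only different wells. The methods describe RNA taken from each well of a culture plate and do not tie the samples to rats. The p-values therefore measure only the spread between these samples, which may be technical. The comparisons ask how the collagen genes differ between ASCs of different depots, with SASCs as the group to which EASCs and PASCs were both compared.

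Collagens are the main structural proteins of the extracellular matrix, and each molecule is a triple-stranded helix wound from alpha chains, each chain being the product of its own gene. Fibrillar collagens form the fibers that carry tension, collagens that attach to those fibers (FACITs) coat them, type IV collagens form the sheet of basement membranes, and type VI collagens form beaded filaments around cells. In fat, adipocytes are wrapped in a basement membrane with a type VI network, and stromal cells such as ASCs make most of the fibrillar collagen. Of the 44 genes, 11 are fibrillar, 6 belong to type IV, 9 are FACITs, 6 belong to type VI, and 12 are of other kinds. The last include type VII of anchoring fibrils, the short-chain types VIII and X, types XV and XVIII, whose helix is interrupted many times, and membrane-spanning types such as XIII and XVII.

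The starts of a few genes named below are shown, and whether their sequence has a part in the differences was not tested. Col4a1 and Col4a2, the main chains of type IV, lie head to head with 72 bases between their annotated ends, and both were lower in PASCs than in SASCs. Col8a1 and Col8a2, the chains of type VIII, lie on different chromosomes and changed in opposite directions. Col7a1 rose most, and Col6a1 and Col18a1 fell. The sequences are from RefSeq on build GRCr8, a later build than that of the deposited table. The stretch between the starts of Col4a1 and Col4a2 is chr16:84885521-84885596, on the strand of Col4a1, and for the others the 150 bases before the start are given on the strand of the gene. Capitals mark a GC box (GGGCGG, read on both strands), and matches may overlap, as at CCGCCCGCCC in Col8a2.

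Col4a1-Col4a2: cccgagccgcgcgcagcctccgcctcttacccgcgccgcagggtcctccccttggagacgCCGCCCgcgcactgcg
Col8a1 (chr11:56246632-56246781): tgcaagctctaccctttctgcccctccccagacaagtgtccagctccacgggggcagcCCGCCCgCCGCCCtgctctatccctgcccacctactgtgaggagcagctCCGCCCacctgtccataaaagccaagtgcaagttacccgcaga
Col8a2 (chr5:143870619-143870768): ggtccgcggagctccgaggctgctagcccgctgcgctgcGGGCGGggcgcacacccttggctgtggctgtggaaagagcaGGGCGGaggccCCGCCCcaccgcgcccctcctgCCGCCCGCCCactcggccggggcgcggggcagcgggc
Col7a1 (chr8:118483214-118483363): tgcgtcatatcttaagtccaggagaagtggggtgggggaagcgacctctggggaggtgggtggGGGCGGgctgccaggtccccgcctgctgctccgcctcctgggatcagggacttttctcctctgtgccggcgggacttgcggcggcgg
Col6a1 (chr20:11905540-11905689): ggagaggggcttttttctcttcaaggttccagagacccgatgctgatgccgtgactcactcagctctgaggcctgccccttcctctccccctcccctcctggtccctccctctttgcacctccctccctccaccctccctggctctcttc
Col18a1 (chr20:11473495-11473644): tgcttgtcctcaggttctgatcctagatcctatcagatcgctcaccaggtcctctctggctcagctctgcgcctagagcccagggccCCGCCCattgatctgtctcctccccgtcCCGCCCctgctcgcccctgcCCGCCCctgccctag

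Of the 44 genes, 35 had an entry in the RefSeq table, and 9 did not, among them Col1a1, Col3a1, Col6a2, Col12a1, and Col14a1. A GC box stood within the 150 bases before the start in 19 of these 35 genes (54.3%), compared with 26.0% of all 33469 entries. A CCAAT box (CCAAT, both strands) stood there in 8 (22.9%, compared with 23.5% of all entries), and a TATA box (TATAAA, both strands) in 2 (5.71%, compared with 8.0%). The 150 bases before Col6a1 held none of these 3 motifs. The stretch between Col4a1 and Col4a2 held 1 GC box. At least 1 stood in the 76 bases before the start in 18.1% of all entries and in 14 of the 35 collagen genes (40.0%). These matches describe letters only.

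Total counts per sample ranged from 17591916 to 30299032. Genes of ribosomal RNA took 10.4% to 15.5% of the counts of each SASCs sample, 22.4% to 32.9% of each PASCs sample, and 15.9% to 40.3% of each EASCs sample. Values are given as CPM, the counts scaled by TMM to a common library size, and per kilobase of gene length (FPKM) where different genes are compared. DEGs are genes with an adjusted p under 0.05 whose level differed by more than 2-fold. A fold change given for EASCs or for PASCs is relative to SASCs, one between EASCs and PASCs is EASCs relative to PASCs, and errors after it are standard errors (SE). The 7 markers of mesenchymal stem cells summed to 4135 to 4262 CPM in SASCs, against 3784 to 3960 in PASCs and 4958 to 5027 in EASCs, with members that moved in opposite directions. Of these 7, 2 were DEGs upwards (13.6% of all genes were) and 1 downwards (14.2%) in EASCs, and 1 was a DEG downwards in PASCs (14.9%). Pdgfra fell from 1543 CPM in SASCs to 278 in PASCs and 235 in EASCs, Itgb1 rose from 1046 to 1814 and 2951, and Cd44 had 209, 253, and 236 CPM. Markers of other cells moved with the groups. The 6 smooth muscle and pericyte markers summed to 160 to 172 CPM in SASCs, against 2829 to 3126 in PASCs and 6317 to 6685 in EASCs, and 5 of 6 were DEGs upwards in each comparison with SASCs (13.6% of all genes in EASCs and 12.0% in PASCs). The sixth, Rgs5, was a DEG downwards in each, from 1.25 CPM in SASCs to 0.0759 in PASCs and 0.169 in EASCs. The 8 mesothelial markers summed to 20.01 to 21.4, 98.3 to 106, and 132 to 143 CPM in the same order, and the 7 macrophage and leukocyte markers to 48.1 to 52.1, 115 to 121, and 167 to 178 CPM. The 7 endothelial markers summed to 52.3 to 53.8 CPM in SASCs, against 13.3 to 16.1 in PASCs and 35.3 to 38.7 in EASCs, and the 5 adipocyte markers to 87.1 to 95.9, 19.1 to 20.2, and 9.24 to 10.1 CPM. The 3 epithelial markers summed to at most 1.17 CPM in every sample. The 5 chondrocyte markers summed to 6.41 to 8.20, 34.5 to 44.4, and 48.5 to 50.0 CPM, nearly all of it Sox9, with Matn1 at 0 in every sample. The part of these cells in the differences between the collagen genes was not tested. In such bulk samples, fewer cells of a type and less RNA per cell cannot be told apart.

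Of the 44 collagen genes, 29 passed the filter on low counts and were tested. The filter keeps a gene that is present in 1 group alone, so that genes such as Col6a6 and Col24a1 passed through their counts in SASCs, and counts over the genes tested describe them without support from their number. In EASCs compared with SASCs, 15 of the 29 were DEGs (51.7%, compared with 27.8% of all 14770 genes tested), 6 upregulated (13.6% of all genes were) and 9 downregulated (14.2%). In PASCs compared with SASCs, 15 of the 29 were again DEGs (26.9% of all genes), 6 upregulated (12.0%) and 9 downregulated (14.9%). Between EASCs and PASCs, Col27a1 alone was a DEG, lower in EASCs, which is 3.45% of the 29 (7.39% of all genes, 2.2% downwards and 5.19% upwards). At any fold change, 25 of 29 passed the adjusted p in EASCs compared with SASCs (69.7% of all genes), 25 in PASCs compared with SASCs (69.2%), and 14 between EASCs and PASCs (30.7%). The median log2 fold change of the 29 was -0.21, -0.52, and 0.20 in these comparisons, beside 0.0061, -0.0082, and -0.0065 for all genes tested. The median between EASCs and PASCs was 0.032 without sample 3 of EASCs and 0.11 without sample 1 of PASCs. Under total counts in place of TMM, collagen DEGs against SASCs were 4 upwards and 12 downwards in EASCs, and 3 and 12 in PASCs. Genes of at least 1 FPKM gave 9 collagen DEGs in each of these comparisons with SASCs.

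Both comparisons share the SASCs samples. Col5a1, Col11a1, Col4a5, Col17a1, Col7a1, and Col8a2 were DEGs upwards in each of them, and Col11a2, Col24a1, Col14a1, Col6a1, Col6a6, Col10a1, and Col18a1 were DEGs downwards in each. Col27a1 and Col6a2 were called lower in EASCs and not in PASCs, and Col5a3 and Col8a1 in PASCs and not in EASCs. With total counts in place of TMM, Col6a2 was also called in PASCs (-1.27) and Col8a1 in EASCs (-1.14). Of these, the direct comparison of EASCs with PASCs called Col27a1, whereas Col6a2, Col5a3, and Col8a1 differed between EASCs and PASCs by log2 fold changes of -0.29, 0.52, and 0.31 that passed the adjusted p (1.42e-04, 2.73e-04, and 8.90e-05) and not the fold change. With total counts in place of TMM these 3 no longer passed the adjusted p (0.133, 0.0623, and 0.387). No collagen gene was called in opposite directions. The share of all genes called in both comparisons was not computed, so this agreement is not shown to be particular to collagen genes.

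**Figure D1:**
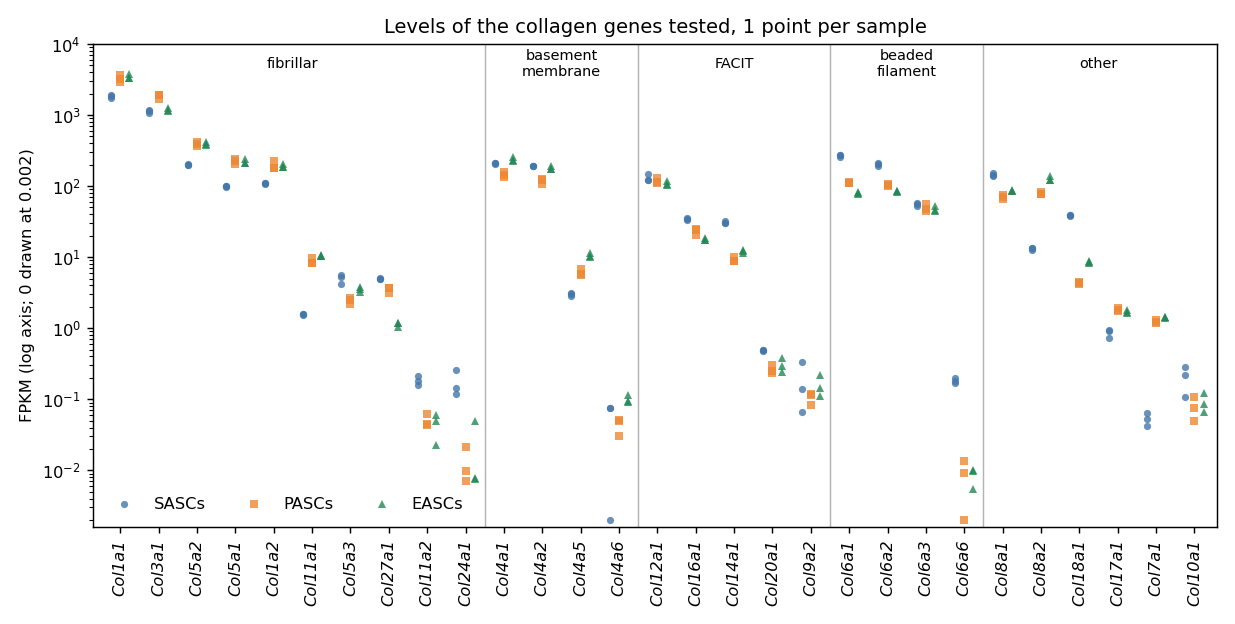
FPKM of the 29 collagen genes tested on a log axis, with 1 point for each of the 3 samples of SASCs (circles), PASCs (squares), and EASCs (triangles), by class. Col1a1 and Col3a1 lie above all other genes in every sample, Col6a6 and Col24a1 are at or below 0.26 FPKM, and the points of SASCs stand apart from the others for Col8a2, Col18a1, Col11a1, and Col7a1.

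Fibrillar collagens made up most of the collagen RNA. Col1a1, the main chain of type I collagen, was higher in PASCs and EASCs than in SASCs, and Col3a1, the chain of type III, was higher in PASCs only. Of the 10 fibrillar genes tested, Col11a1 and Col5a1 were DEGs upwards in both EASCs and PASCs, while Col24a1, Col11a2, and Col27a1 were DEGs downwards in EASCs and Col24a1, Col11a2, and Col5a3 in PASCs, which is 50.0% of the 10 in each, compared with 27.8% and 26.9% of all genes. The median log2 fold change of the 10 was 0.45 in EASCs and 0.76 in PASCs compared with SASCs.

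Col1a1 had 11183, 10706, and 10204 CPM in the SASCs samples numbered 1 to 3, 18842, 17117, and 21442 in PASCs, and 19640, 19378, and 21979 in EASCs. All 6 samples of PASCs and EASCs were above all SASCs samples and overlapped with each other. Compared with SASCs, the log2 fold change was 0.93 ± 0.08 (SE) for EASCs (adjusted p = 2.30e-11) and 0.84 ± 0.08 for PASCs (adjusted p = 1.72e-10), both under a fold change of 2. Between EASCs and PASCs it was 0.09, with a 95% interval of -0.06 to 0.24 (adjusted p = 0.423), and without sample 3 of PASCs it was 0.18 (adjusted p = 0.0489). Total counts in place of TMM gave 0.52 for EASCs and for PASCs compared with SASCs (adjusted p = 0.00381 and 0.00402). Col1a2, the partner chain of type I, rose by 0.82 on the log2 scale in both EASCs (adjusted p = 8.23e-11) and PASCs (adjusted p = 8.05e-11), from 1067 ± 27.7 CPM (SD, n = 3) in SASCs to 1882 ± 251 in PASCs and 1880 ± 111 in EASCs. Its annotated span, chr4:29529504-31569152 on rn6, covers 25 other entries, among them Pon2 with 14513 counts and Sgce with 8732 over all samples against 343404 for Col1a2, and its level is therefore uncertain.

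Col3a1 had 5616, 5361, and 5119 CPM in SASCs, against 9060, 7988, and 9098 in PASCs and 5601, 5493, and 5931 in EASCs. PASCs stood above every other sample, and SASCs and EASCs overlapped. In the fit, the log2 fold change was 0.70 ± 0.07 in PASCs compared with SASCs (adjusted p = 3.05e-10), 0.08 ± 0.07 for EASCs (adjusted p = 0.272), and -0.62 ± 0.07 in EASCs compared with PASCs (adjusted p = 1.74e-08). Type III collagen forms thin fibers together with type I. The share of Col1a1 in the summed FPKM of all 44 genes was 39.0% ± 0.836 (SD, n = 3) in SASCs, 48.4% ± 1.32 in PASCs, and 53.6% ± 0.538 in EASCs, and that of Col3a1 was 23.9% ± 0.524, 27.0% ± 1.06, and 18.3% ± 0.386.

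Type V and type XI chains sit inside type I and type II fibrils and set their width. Col5a1 rose from 808 ± 16.9 CPM (SD, n = 3) in SASCs to 1805 ± 138 in PASCs (log2 fold change 1.16, adjusted p = 4.72e-15) and 1793 ± 133 in EASCs (1.15, adjusted p = 5.20e-15). With total counts in place of TMM these were 0.84 and 0.75, under a fold change of 2. Col5a2 rose from 1228 ± 22.1 CPM to 2377 ± 162 and 2412 ± 125, with log2 fold changes of 0.95 in PASCs and 0.97 in EASCs, just under a fold change of 2. It became a DEG in PASCs without sample 2 of PASCs and in EASCs without sample 2 of EASCs (1.00 in each). Col5a3, the third type V chain, went the other way, from 30.6 ± 4.14 CPM in SASCs to 15.0 ± 1.62 in PASCs (log2 fold change -1.03, adjusted p = 8.78e-10) and 21.5 ± 1.70 in EASCs (-0.51, adjusted p = 5.19e-05). Its call in PASCs was lost without sample 1 of SASCs (-0.95) and without sample 2 of PASCs (-0.95), where the fold change fell below 2.

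Col11a1 had 12.6, 12.3, and 11.9 CPM in SASCs, against 65.2, 65.0, and 75.0 in PASCs and 80.8, 83.5, and 81.8 in EASCs. The 3 groups did not overlap, and EASCs were highest. On the log2 scale, the fold change was 2.74 ± 0.07 for EASCs (adjusted p = 3.38e-22) and 2.48 ± 0.07 for PASCs (adjusted p = 4.19e-21) compared with SASCs, and 0.27 ± 0.06 between EASCs and PASCs (adjusted p = 0.00173), which with total counts was 0.19 (adjusted p = 0.538). Col11a2, which encodes another type XI chain, was low and went the other way, with 1.32, 1.57, and 1.17 CPM in SASCs, against 0.459, 0.336, and 0.318 in PASCs and 0.167, 0.365, and 0.447 in EASCs. Its 99 counts in SASCs stood against 27 in PASCs and 23 in EASCs, and all SASCs samples were above all others. As a log2 fold change, the difference was -2.04 ± 0.44 for EASCs (adjusted p = 1.91e-04) and -1.84 ± 0.43 for PASCs (adjusted p = 4.59e-04). Of type II collagen, the collagen of cartilage, Col2a1 had at most 4 counts in any sample.

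Col24a1 and Col27a1 encode fibrillar collagens known mainly from developing bone and cartilage. Col24a1 had 1.39, 0.764, and 0.635 CPM in SASCs (13 to 40 counts), against 0.0383, 0.112, and 0.0530 in PASCs (1 to 3 counts) and 0.0419, 0.0405, and 0.268 in EASCs (1 to 6 counts). Each SASCs sample was above each sample of the other groups, 5 of which had 3 counts or fewer (3 counts correspond to 0.104 to 0.159 CPM). The ratio of SASCs to EASCs over summed counts was 8.64 (95% exact counting interval 4.16 to 20.8) and that of SASCs to PASCs was 14.0 (5.72 to 44.4), and the interval covers counting error only. In the fit, the adjusted p was 1.70e-04 in EASCs and 4.05e-05 in PASCs.

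Col27a1 had 36.8, 36.5, and 38.1 CPM in SASCs, against 27.4, 22.9, and 27.2 in PASCs and 8.67, 7.70, and 8.77 in EASCs. The order was SASCs, PASCs, and EASCs with no overlap. The difference on the log2 scale was -2.15 ± 0.09 for EASCs (adjusted p = 1.91e-17) and -0.52 ± 0.08 for PASCs (adjusted p = 3.39e-06) compared with SASCs. Between EASCs and PASCs it was -1.62 ± 0.10 (adjusted p = 1.30e-13), which is also the test that the changes from SASCs differ.

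**Figure D2:**
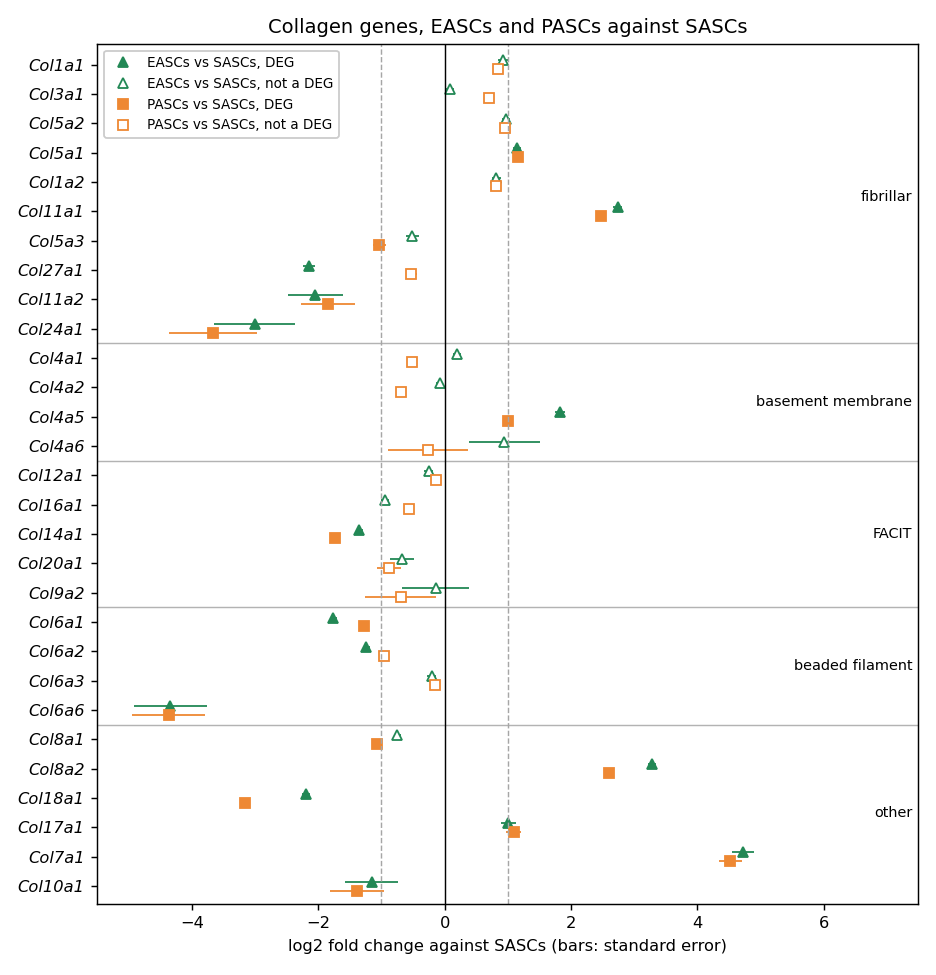
log2 fold change with its standard error for the 29 collagen genes tested, EASCs (triangles) and PASCs (squares) compared with SASCs, by class. Filled symbols are DEGs and dashed lines mark a fold change of 2. Col7a1 (4.72 and 4.52), Col8a2 (3.28 and 2.60), and Col11a1 (2.74 and 2.48) lie farthest to the right, and Col6a6 (-4.34 and -4.37) and Col24a1 (-3.67 in PASCs) farthest to the left.

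FACITs, which bind to the surface of fibrils, showed no rise in EASCs or PASCs that passed the test. Of the 5 tested, Col14a1 was a DEG downwards in both comparisons, and none was a DEG upwards (27.8% and 26.9% of all genes were DEGs). At any fold change, 4 passed the adjusted p in EASCs (69.7% of all genes) and 3 in PASCs (69.2%), shares near those of all genes, all with negative values, and the median log2 fold change was -0.68 and -0.69. Col14a1 had 196 ± 7.06 CPM (SD, n = 3) in SASCs, 58.8 ± 4.20 in PASCs, and 76.9 ± 3.20 in EASCs, with log2 fold changes of -1.74 for PASCs (adjusted p = 1.12e-19) and -1.35 for EASCs (adjusted p = 2.25e-17).

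Col12a1, the FACIT with the highest level and a component of tendon and ligament, had 1611, 1625, and 1940 CPM in SASCs, against 1505, 1470, and 1746 in PASCs and 1368, 1418, and 1562 in EASCs. EASCs lay below SASCs in every sample, while PASCs overlapped with both. The fitted log2 fold change was -0.25 ± 0.07 for EASCs (adjusted p = 0.00381), -0.13 ± 0.07 for PASCs (adjusted p = 0.111), and -0.12 ± 0.07 between EASCs and PASCs (adjusted p = 0.248). Without sample 3 of SASCs the adjusted p for EASCs was 0.0564, and without sample 3 of PASCs that for PASCs was 0.0105. In PASCs it also passed with no filter on low counts (0.0407), with genes of at least 1 FPKM (0.0422), with total counts (0.0129), and with the replicate block (0.0160). Col16a1 had 196, 200.1, and 186 CPM in SASCs, against 142, 118, and 136 in PASCs and 98.8, 100.0, and 105 in EASCs. The groups did not overlap, and the level was lowest in EASCs. Compared with SASCs, the log2 fold change was -0.94 ± 0.06 for EASCs (adjusted p = 2.09e-13), -0.56 ± 0.06 for PASCs (adjusted p = 7.03e-09), and -0.38 ± 0.06 between them (adjusted p = 2.08e-05). With total counts it was -1.34 in EASCs, a DEG.

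Col20a1 was low in all groups, with 5.03 ± 0.0879 CPM (SD, n = 3) in SASCs, 2.72 ± 0.370 in PASCs, and 3.15 ± 0.696 in EASCs, and passed the adjusted p without reaching a fold change of 2 (log2 fold change -0.88 in PASCs and -0.68 in EASCs). It became a DEG with total counts in both (-1.21 and -1.09), and in PASCs, by a small margin, without sample 1 of PASCs. Col9a2, a chain of the cartilage collagen IX, had 0.579 ± 0.445 CPM in SASCs, 0.340 ± 0.0656 in PASCs, and 0.514 ± 0.181 in EASCs, and passed no test. Its partners Col9a1, with 0 counts in every sample (3 counts correspond to 0.104 to 0.159 CPM), and Col9a3, with at most 4, were not tested, nor were Col19a1 (at most 6) and Col22a1 (at most 2).

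Type IV genes followed their own order, with PASCs lowest for the main chains. Col4a1 had 1371, 1393, and 1367 CPM in SASCs, against 957, 880.3, and 1047 in PASCs and 1507, 1529, and 1697 in EASCs. The groups did not overlap, with PASCs below and EASCs above SASCs. In the fit, the log2 fold change was -0.52 ± 0.06 for PASCs (adjusted p = 4.81e-08) and 0.20 ± 0.06 for EASCs (adjusted p = 0.00780) compared with SASCs, and 0.71 ± 0.06 between EASCs and PASCs (adjusted p = 6.31e-10). The rise in EASCs depended on the scaling: with total counts in place of TMM, which moved the median of all genes by -0.40 in this comparison, it was -0.21 (adjusted p = 0.272). Without sample 3 of EASCs it was 0.15 (adjusted p = 0.0516).

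Col4a2 had 1214, 1211, and 1208 CPM in SASCs, against 767, 691, and 799 in PASCs and 1095, 1122, and 1224 in EASCs. PASCs were below all other samples, and SASCs and EASCs overlapped. On the log2 scale, the fold change was -0.69 ± 0.06 for PASCs (adjusted p = 9.01e-11), -0.08 ± 0.06 for EASCs (adjusted p = 0.250, 95% interval -0.20 to 0.04), and 0.61 ± 0.06 between EASCs and PASCs (adjusted p = 5.41e-09). With total counts, EASCs passed at -0.48 (adjusted p = 0.00708), and the gene was a DEG in PASCs at -1.01. Both genes thus differed between PASCs and the other groups in the same direction.

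Col4a5, an X-linked chain of type IV, went up in both comparisons, from 19.7 ± 1.17 CPM (SD, n = 3) in SASCs to 39.8 ± 3.79 in PASCs and 70.1 ± 4.45 in EASCs. As a log2 fold change, the difference was 1.83 for EASCs (adjusted p = 1.11e-17) and 1.01 for PASCs (adjusted p = 8.92e-12), and the call in PASCs, at the edge of a fold change of 2, was lost without sample 3 of SASCs (0.97), without sample 3 of PASCs (0.93), with genes of at least 1 FPKM (0.96), and with total counts in place of TMM (0.70). Col4a6, also X-linked, had 0.369 ± 0.320 CPM in SASCs, 0.326 ± 0.0881 in PASCs, and 0.750 ± 0.0871 in EASCs and passed no test in the fit of all 9 samples. In the fit of EASCs and PASCs alone it was called higher in EASCs (log2 fold change 1.21, adjusted p = 0.0493). Col4a3 and Col4a4, the chains of the kidney filter, had at most 6 counts each and were not tested. They too lie head to head, 347 bases apart.

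Of the type VI genes, Col6a1, Col6a2, and Col6a6 were lower in EASCs and PASCs, and the smaller difference of Col6a3 depended on the setting. All 4 tested passed the adjusted p in EASCs (69.7% of all genes did) and 3 in PASCs (69.2%), with negative values. Of these, Col6a1, Col6a2, and Col6a6 were DEGs downwards in EASCs (14.2% of all genes were), and Col6a1 and Col6a6 in PASCs (14.9%), with a median log2 fold change of -1.50 and -1.12. Type VI molecules are assembled in the cell from the products of Col6a1, Col6a2, and commonly Col6a3. Col6a1 had 1045, 1122, and 1107 CPM in SASCs, against 443, 444, and 460 in PASCs and 309, 322, and 336 in EASCs. The groups did not overlap, and EASCs were lowest. The difference on the log2 scale was -1.76 ± 0.06 for EASCs (adjusted p = 1.46e-20), -1.28 ± 0.06 for PASCs (adjusted p = 1.46e-17), and -0.48 ± 0.05 between EASCs and PASCs (adjusted p = 7.07e-08).

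Col6a2, which follows Col6a1 on chromosome 20 on the same strand after 97103 bases, had 977, 1043, and 1082 CPM in SASCs, against 540.1, 515, and 547 in PASCs and 428, 439, and 443 in EASCs. Its groups stood in the same order without overlap. The fitted log2 fold change was -1.24 ± 0.06 for EASCs (adjusted p = 3.46e-17), -0.95 ± 0.06 for PASCs (adjusted p = 1.21e-14), and -0.29 ± 0.06 between them (adjusted p = 1.42e-04). Col6a3, which lies on chromosome 9, had 596 ± 24.7 CPM (SD, n = 3) in SASCs, 536 ± 69.1 in PASCs, and 516 ± 49.0 in EASCs. Its log2 fold change was -0.21 for EASCs (adjusted p = 0.0147, 95% interval -0.35 to -0.06) and -0.15 for PASCs (adjusted p = 0.0657, -0.30 to -0.01), and SASCs overlapped with both. In EASCs it missed the threshold without sample 3 of SASCs, sample 1 of EASCs, or sample 2 of EASCs (adjusted p = 0.0600, 0.0886, and 0.0782), with DESeq2 (0.0707), and with limma on log2(FPKM + 1) (0.0547), and in PASCs it passed without sample 3 of PASCs (0.00139) or sample 3 of EASCs (0.0420), with no filter on low counts (0.0167), with genes of at least 1 FPKM (0.0217), with total counts (0.00888), and with the replicate block (0.00812).

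Col6a6, a rarer type VI chain, had 1.43, 1.66, and 1.51 CPM in SASCs (31 to 41 counts), against 0.0765, 0.112, and 0 in PASCs (0 to 3 counts) and 0.0837, 0.0811, and 0.0447 in EASCs (1 to 2 counts). All samples of PASCs and EASCs were at or under 3 counts, and all SASCs samples were above them. The ratio of SASCs to EASCs over summed counts was 21.6 (95% exact counting interval 8.99 to 67.9) and that of SASCs to PASCs 21.9 (9.10 to 68.7). The adjusted p of the fit was 2.32e-07 and 2.09e-07. Its neighbors Col6a5, with 0 to 14 counts, and Col6a4, with at most 2, were not tested.

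Type VIII collagen is a short-chain network known from vessel walls and the eye, and the RNA of its chains changed in opposite directions. Col8a1 had 402, 362, and 375 CPM in SASCs, against 192, 170.4, and 182 in PASCs and 222, 231, and 224 in EASCs. The groups did not overlap, and PASCs were lowest. Compared with SASCs, the log2 fold change was -1.07 ± 0.06 for PASCs (adjusted p = 2.39e-15), -0.75 ± 0.06 for EASCs (adjusted p = 3.89e-12), and 0.31 ± 0.06 between EASCs and PASCs (adjusted p = 8.90e-05). An uncharacterized entry, LOC102554795, overlaps Col8a1 on the same strand, with 5061 counts over all samples against 56770.

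Col8a2 had 57.8, 56.8, and 52.9 CPM in SASCs, against 356, 333, and 331 in PASCs and 523, 515, and 587 in EASCs. SASCs were lowest and EASCs highest, with no overlap. In the fit, the log2 fold change was 3.28 ± 0.07 for EASCs (adjusted p = 4.35e-25), 2.60 ± 0.06 for PASCs (adjusted p = 5.19e-23), and 0.67 ± 0.06 between EASCs and PASCs (adjusted p = 3.84e-10). Of the short-chain type X, which marks cartilage about to turn to bone, Col10a1 had 1.43 ± 0.624 CPM (SD, n = 3) in SASCs, 0.541 ± 0.202 in PASCs, and 0.639 ± 0.197 in EASCs, with log2 fold changes of -1.16 for EASCs (adjusted p = 0.0175) and -1.39 for PASCs (adjusted p = 0.00603). SASCs and EASCs overlapped. The call in EASCs was lost without sample 1 or 3 of SASCs (adjusted p = 0.0567 and 0.117) and without sample 1 or 2 of EASCs (0.0830 and 0.0535), and that in PASCs without sample 3 of SASCs (0.0524). Nt5dc1 overlaps Col10a1 on the opposite strand with 3426 counts over all samples against 187, so that its reads may belong to either gene.

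Col7a1 encodes the collagen of the anchoring fibrils that fasten basement membranes to the tissue below, and showed the largest rise among the 29 genes. It had 0.487, 0.594, and 0.391 CPM in SASCs (8 to 14 counts), against 12.0, 11.3, and 11.0 in PASCs and 13.3, 13.3, and 13.02 in EASCs. All samples of PASCs and EASCs were far above SASCs, and EASCs were above PASCs by a small margin. On the log2 scale, the fold change was 4.72 ± 0.18 for EASCs (adjusted p = 7.92e-19) and 4.52 ± 0.18 for PASCs (adjusted p = 3.04e-18), and 0.20 ± 0.11 between them (adjusted p = 0.186). Even in EASCs, its level of 1.43 FPKM was a small part of the collagen RNA.

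Col18a1, a basement membrane collagen whose end is released as endostatin, had 198, 190, and 194 CPM in SASCs, against 20.8, 21.6, and 22.5 in PASCs and 42.2, 43.7, and 41.3 in EASCs. The groups did not overlap, and PASCs were lowest. As a log2 fold change, the difference was -3.17 ± 0.06 for PASCs (adjusted p = 3.38e-25), -2.19 ± 0.06 for EASCs (adjusted p = 1.78e-22), and 0.97 ± 0.06 between EASCs and PASCs (adjusted p = 9.37e-13), which became 1.00 and a DEG without sample 3 of PASCs. Endothelial cells express this gene too, and the summed endothelial markers had the same order, SASCs, EASCs, and PASCs. Of the 6 endothelial markers tested, 5 were DEGs downwards and 1 upwards in PASCs, and 1 downwards and 1 upwards in EASCs (26.9% and 27.8% of all genes were DEGs). Tek rose from 2.55 CPM in SASCs to 8.30 in PASCs and 8.08 in EASCs, and Cdh5 had 9.20, 1.13, and 9.77 CPM. Their part in the difference was not tested.

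Col17a1, a membrane-spanning collagen of epithelial attachment sites, rose from 6.01 ± 0.812 CPM (SD, n = 3) in SASCs to 12.9 ± 0.640 in PASCs (log2 fold change 1.09, adjusted p = 6.97e-09) and 12.2 ± 0.663 in EASCs (1.01, adjusted p = 3.18e-08). It lay at the edge of a fold change of 2, and was no longer called in EASCs without sample 3 of SASCs (0.91) or sample 3 of EASCs (0.97), nor in PASCs without sample 3 of SASCs (0.99), nor in EASCs with genes of at least 1 FPKM (0.98), nor in either with total counts in place of TMM (0.61 and 0.77). Epithelial markers were at or near 0 (Epcam, Cdh1, and Cldn4 summed to at most 1.17 CPM). Col13a1, another membrane-spanning collagen, was not tested, with 24 counts over the SASCs samples, 0 over PASCs, and 2 over EASCs. Against a floor of 3 counts over the group, its level was at least 7.89-fold higher in SASCs than in PASCs, and the ratio of SASCs to EASCs was 11.7 (95% exact counting interval 2.90 to 102). With no filter on low counts it was called lower in both EASCs (adjusted p = 0.0342) and PASCs (adjusted p = 0.00234), and Col4a4 and Col6a5 were called lower in EASCs. Col23a1, Col25a1, Col26a1, and Col28a1 had at most 2 counts in any sample.

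Col15a1, the relative of Col18a1 in basement membranes of fat and muscle, had only 2 to 18 counts. A separate entry described as a chain like that of type XV, LOC100909752, lies elsewhere on chromosome 5 and had 36.3 ± 0.773 CPM (SD, n = 3) in SASCs, 45.0 ± 2.55 in PASCs, and 94.3 ± 11.9 in EASCs. Its log2 fold change was 1.38 for EASCs (adjusted p = 3.03e-15), 0.31 for PASCs (adjusted p = 9.51e-04), and 1.07 between EASCs and PASCs (adjusted p = 3.93e-12), and 1.38 in EASCs with the counts of both entries added, an alternative chosen after the data were seen. The table held 13 such entries that are described as collagen chains and are not among the 44. Of the 4 with over 100 counts in a sample, LOC102556297 and LOC103693757 are described as like the chain of Col1a1 and LOC102553290 as like that of Col3a1. They may share reads with those genes. LOC103693757 ranged from 112 to 620.2 CPM within PASCs, against 17117 to 21442 for Col1a1.

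**Figure D3:**
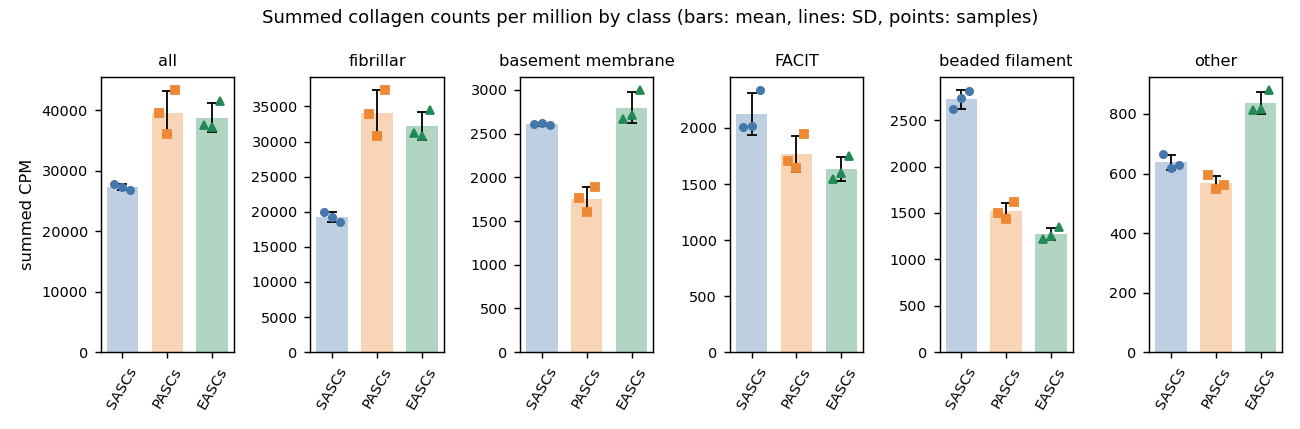
Summed CPM of all 44 collagen genes and of each class, with 1 point per sample, the mean as a bar, and the SD as a line, on axes that start at 0. Fibrillar sums are 18485 to 19985 in SASCs and at least 30809 in the 6 other samples, type IV sums are lowest in PASCs, and type VI sums fall from SASCs to PASCs to EASCs.

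Summed over all 44 genes, collagen RNA was 27338 ± 515 CPM (SD, n = 3) in SASCs, 39631 ± 3637 in PASCs, and 38743 ± 2400 in EASCs, which is 1.45-fold and 1.42-fold the level of SASCs, with no overlap. With 3 samples against 3, the smallest p that the two-sided exact permutation test can give is 0.1, which was reached by both (0.12 after adjustment over 18 comparisons of sums). The size and the separation depended on the scale. As a share of all counts without TMM, the log2 ratio was 0.09 in EASCs and 0.21 in PASCs, beside 0.50 and 0.53 after TMM. Without TMM, SASCs samples (3.13% to 3.35%) overlapped with those of PASCs (3.18% to 4.38%) and of EASCs (3.07% to 3.99%). Sample 3 of EASCs then lay below every SASCs sample. As a share of counts outside genes of ribosomal RNA, collagen genes took 3.68% to 3.83% in SASCs, against 4.75% to 5.64% in PASCs and 4.74% to 5.14% in EASCs.

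The classes moved in different directions. Fibrillar genes summed to 19248 ± 750 CPM (SD, n = 3) in SASCs, 34022 ± 3247 in PASCs, and 32205 ± 2024 in EASCs. Type VI genes summed to 2723 ± 99.3 CPM in SASCs, 1519 ± 92.7 in PASCs, and 1275 ± 67.5 in EASCs, which is 0.558-fold and 0.468-fold the level of SASCs. FACITs summed to 2121 ± 187 CPM in SASCs, 1767 ± 160 in PASCs, and 1631 ± 107 in EASCs. Type IV genes summed to 2609 ± 15.5, 1754 ± 141, and 2796 ± 176 CPM, and the remaining collagens to 638 ± 25.9, 568 ± 23.2, and 836 ± 37.8 CPM in the same order. In every class SASCs did not overlap with either other group, and each such comparison reached the smallest exact permutation p of 0.1. EASCs and PASCs overlapped for fibrillar genes and FACITs. The direction for type IV in EASCs depended on the scale: of all counts without TMM, type IV genes took 0.222% to 0.292% in EASCs, below the 0.302% to 0.323% of SASCs, and of counts outside genes of ribosomal RNA EASCs and SASCs overlapped (0.337% to 0.371% and 0.355% to 0.360%). The remaining collagens overlapped between EASCs and SASCs as a share of all counts (0.0650% to 0.0875% and 0.0733% to 0.0774%). These shares by class were added after the data were seen.

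Ratios of FPKM between chains of the same molecule do not depend on the scaling of the sample. Col8a1 to Col8a2 was 11.4, 10.5, and 11.6 in SASCs, against 0.887, 0.841, and 0.902 in PASCs and 0.695, 0.738, and 0.626 in EASCs. Col8a1 was thus the major chain in SASCs and the minor chain in all 6 other samples, with a difference in log2 ratio of -3.67 in PASCs and -4.03 in EASCs. Col6a3 to Col6a1 was 0.205 ± 0.0119 (SD, n = 3) in SASCs, 0.447 ± 0.0485 in PASCs, and 0.600 ± 0.0351 in EASCs. Col6a1 to Col6a2 fell from 1.35 ± 0.0368 in SASCs to 1.08 ± 0.0258 in PASCs and 0.945 ± 0.0240 in EASCs, although these genes moved in the same direction.

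The ratio of Col4a1 to Col4a2 was 1.10 ± 0.0116 in SASCs, 1.24 ± 0.0298 in PASCs, and 1.33 ± 0.0120 in EASCs (SD, n = 3). Col5a1 to Col5a2 was 0.490 ± 0.00955, 0.566 ± 0.00692, and 0.554 ± 0.0137, with overlap between PASCs and EASCs. Col1a1 to Col1a2 was 16.8 ± 1.19, 17.1 ± 0.887, and 18.1 ± 0.257, the groups overlapped, and the value itself is uncertain because of the annotated span of Col1a2. Col3a1 to Col1a1, a ratio added after its values were seen, was 0.613 ± 9.43e-04 in SASCs, 0.559 ± 0.0359 in PASCs, and 0.341 ± 0.0103 in EASCs. Each ratio without overlap reached the smallest exact permutation p of 0.1 (0.124 after adjustment over 21 comparisons of ratios).

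**Figure D4:**
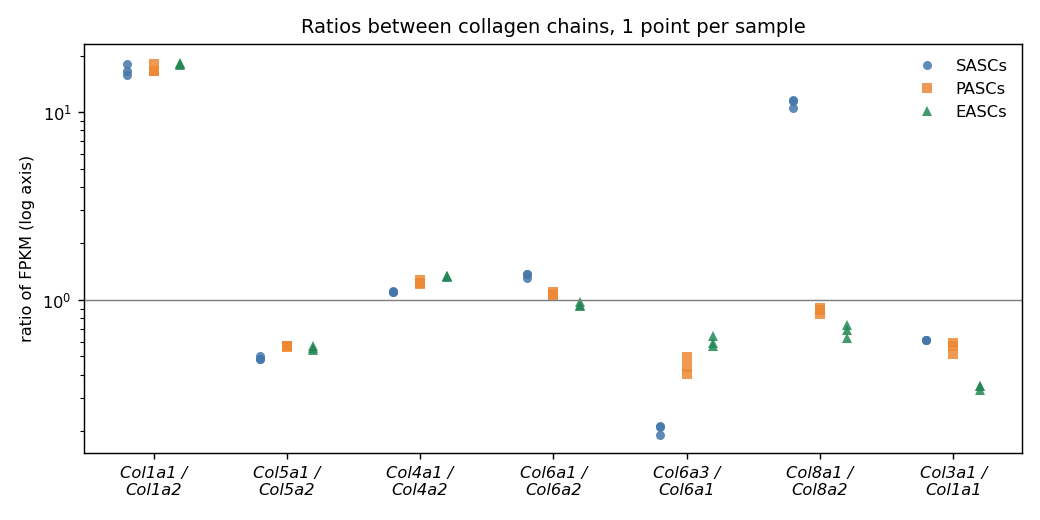
Ratio of FPKM between collagen chains in each sample on a log axis, with SASCs as circles, PASCs as squares, and EASCs as triangles, and a line at a ratio of 1. Col8a1 to Col8a2 falls from above 10 in SASCs to below 1 in the 6 other samples, and Col6a3 to Col6a1 rises from about 0.2 in SASCs to between 0.4 and 0.64 in the others.

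Genes that modify, fold, cut, and cross-link collagen were examined as a separate list of 29, of which 28 were found and tested. In EASCs compared with SASCs, 8 were upregulated and 2 downregulated, in PASCs 6 and 4, and between EASCs and PASCs 3 were higher and none lower in EASCs (27.8%, 26.9%, and 7.39% of all genes tested were DEGs in these comparisons), with median log2 fold changes of 0.01, 0.23, and 0.03. Plod2, which hydroxylates lysines at the ends of collagen chains for cross-linking, rose from 38.7 CPM in SASCs to 448 in PASCs and 926 in EASCs, with log2 fold changes of 3.53 (adjusted p = 9.18e-26) and 4.58 (adjusted p = 6.18e-28), and 1.05 between EASCs and PASCs (adjusted p = 1.96e-14). Loxl2, an enzyme that oxidizes those lysines, rose from 33.0 to 111 and 196 CPM, with a log2 fold change of 2.57 for EASCs (adjusted p = 6.97e-24). Adamts2, which cuts the amino end of procollagens, fell from 268 CPM to 51.8 in PASCs and 60.2 in EASCs (log2 fold change -2.37 in PASCs, adjusted p = 1.05e-22), while the related Adamts14 was 17.1 CPM in EASCs and 7.37 in PASCs (1.21, adjusted p = 1.39e-09). Adamts3 and Leprel1 (P3h2), named by the same rule, lay at or below 1.07 CPM in every group mean.

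Of 10 collagen receptors, 7 were tested, 3 upregulated and 1 downregulated in EASCs, 1 and 1 in PASCs, and 1 higher in EASCs than in PASCs (27.8%, 26.9%, and 7.39% of all genes tested), with median log2 fold changes of 0.36, 0.12, and 0.70. Itga11, the integrin chain for fibrillar collagen, rose from 117 CPM in SASCs to 273 in PASCs (log2 fold change 1.23, adjusted p = 5.48e-17) and 443 in EASCs (1.93, adjusted p = 2.32e-21). Its partner Itgb1 rose from 1046 to 1814 and 2951 CPM (log2 fold change 0.79 in PASCs and 1.50 in EASCs). Ddr2, a receptor tyrosine kinase that binds fibrillar collagen, fell from 410.5 CPM to 187 in PASCs (-1.13, adjusted p = 4.54e-16) and 158 in EASCs (-1.37, adjusted p = 6.67e-18). Itga1, a chain of a receptor for type IV collagen, was 308 CPM in EASCs and 149 in PASCs (1.05, adjusted p = 7.47e-13).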

How the data were processed

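Per the labels and the methods, paired-end reads of 150 bp were trimmed with cutadapt 3.1 and FastX-Toolkit 0.0.13 and aligned with TopHat 2.1.1 by the authors, who deposited raw counts per gene with gene position and length. The processing notes name build rn5 and the methods rn6. The positions in the table run past the end of chromosome 12 in rn5, so rn6 is used here. The counting tool and its use of strand are not given in the sources used here. The methods give 6 replicates in each group, and 3 were analysed here. Counts were scaled by TMM, filtered by filterByExpr, and fitted with edgeR 4.0.16 in R 4.3.3 (quasi-likelihood test, all 9 samples in 1 model, Benjamini-Hochberg adjustment over 14770 genes). The authors used DEGseq for their own comparisons at the same thresholds. FPKM was computed from CPM and the deposited gene length. Sums and ratios were compared by two-sided exact permutation tests. The common biological coefficient of variation was 0.0685, and replicates differed by more than counting noise. The members, classes, and lists were chosen with earlier results of these data known. Values in every sample are given for the 2 genes of each class with the highest mean FPKM, those with an absolute log2 fold change above 2 compared with SASCs, and those called between EASCs and PASCs. From the other lists, at most 3 genes with the largest change were named for each comparison. The result of 1 marker list is not reported here.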

Additional observations from a re-analysis of the deposited data

Results flagged for a closer look

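The changes of Col27a1 and Col4a1 from SASCs differed between EASCs and PASCs by a test of the difference itself. Col27a1 was lower in EASCs than in PASCs by a log2 fold change of -1.62 (adjusted p = 1.30e-13), with every EASCs sample below every PASCs sample, although both groups were below SASCs. Col4a1 moved in opposite directions, to 0.20 in EASCs and -0.52 in PASCs, and the difference was 0.71 (adjusted p = 6.31e-10), with every EASCs sample above every PASCs sample. The direction of Col4a1 in EASCs compared with SASCs changed when total counts replaced TMM, whereas its difference between EASCs and PASCs kept its direction under every alternative tried.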

How the results depend on the processing

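Leaving out each sample in turn gave 14 to 16 collagen DEGs (5 to 7 up, 8 to 10 down, median log2 fold change -0.30 to -0.16) in EASCs and 13 to 16 (4 to 7 up, 8 to 10 down, median -0.58 to -0.46) in PASCs compared with SASCs. Between EASCs and PASCs it gave 1 to 2 (0 to 1 up, median 0.032 to 0.23). The log2 ratio of the sums was 0.45 to 0.53, 0.47 to 0.60, and -0.10 to 0.04. At any fold change 25 genes passed in EASCs and in PASCs (10 up and 15 down in each) and 14 between them (9 up, 5 down). Genes of at least 1 FPKM gave 9 DEGs (5 down, median -0.11) in EASCs, 9 (5 down, median -0.20) in PASCs, and a median of 0.035 between them. limma on log2(FPKM + 1) called 5 down in EASCs and 8 (4 down, median -0.16) in PASCs, with a median of 0.022 between them. It no longer called Col6a6, Col10a1, Col11a2, Col17a1, and Col24a1 in either, nor Col4a5 and Col5a3 in PASCs. A pseudocount of 1 exceeds the level of the rarest genes. Total counts without TMM gave medians of -0.61, -0.84, and 0.12 (all genes: -0.39, -0.33, and -0.08). They gave 4 up and 12 down in EASCs, 3 up and 12 down in PASCs, and -0.21 for Col4a1 in EASCs. A fit of EASCs and PASCs alone called 2 DEGs between them, 1 of them up (Col4a6, adjusted p = 0.0493). The log2 ratio of the sums in EASCs was 0.092 as a share of all counts, 0.38 outside genes of ribosomal RNA, and 0.074 as a share of FPKM, and in PASCs 0.21 of all counts and 0.17 of FPKM. In EASCs, the sum of type IV genes reversed to -0.31 as a share of all counts and -0.025 outside genes of ribosomal RNA, and that of the remaining collagens to -0.019 of all counts. No pairing by replicate number was seen (correlations of deviations -0.03 to 0.06). This check cannot tell if samples of different depots came from the same rats. With the replicate block 15, 15, and 1 genes were called. DESeq2 with its size factors no longer called Col17a1 in EASCs (0.99) and Col4a5 in PASCs (1.00). Of 1453 values of single genes, 1420 stayed on their side of the adjusted p of 0.05, 14 passed and 18 missed it newly, and 1, that of Col4a1, also changed sign. Among the 1420, 31 that passed under neither setting changed sign. DEG calls, which need the fold change too, were lost 33 times and gained 11 times. Genes under about 3 counts cannot be resolved.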
